A study of Homo sapiens with 2 samples.

Results

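The androgen receptor axis was examined in the prostate cancer line PC3 and in its cabazitaxel-resistant derivative PC3CR through 8 genes: KLK2, KLK3, TMPRSS2, FOXA1, FKBP5, NCOA2, MPHOSPH9 and NR3C1. The genes were taken by name, and a probe set counted for a gene when the platform annotation gave it that symbol and no other. All 8 were found, with 29 probe sets among them, out of 19775 genes on the arrays. For each gene the probe set with the greatest average of the 2 arrays, called the brightest here, stands for the gene, and its other probe sets are described beside it. PC3CR is a subline of PC3 that had been passaged for 18 months in medium with cabazitaxel (CBZ), a taxane that stabilises microtubules, and it was examined after 3 months out of the drug. PC3 is the untreated parental line, and both were kept in the same medium with fetal bovine serum. Total RNA of each line was hybridised to 1 array, and the authors deposited 1 log2 value per probe set after the robust multichip average (RMA). The values spanned 1.58 to 14.11 in PC3CR and 1.62 to 14.14 in PC3, and the median over all probe sets was 4.81 on both arrays. Since each line was measured once, no difference could be checked against replicates and no p-value was computed. Probe sets of a gene on the same array share its RNA and are not replicates.

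The androgen receptor is a nuclear receptor that binds androgen in the cytoplasm, where chaperones hold it ready, and then binds DNA at hormone response elements beside pioneer factors such as FOXA1. There it recruits coactivators such as NCOA2 and switches on genes of the luminal prostate cell, among them the kallikreins KLK3 and KLK2 and the protease gene TMPRSS2. The glucocorticoid receptor, encoded by NR3C1, is a close relative that recognises nearly the same response element and shares some of the same target genes, of which FKBP5 is the best known. PC3 is widely used as a prostate cancer line without androgen receptor signalling. The transcript of the androgen receptor itself was not analysed here.

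The genes divided into 3 patterns. NR3C1, FKBP5 and MPHOSPH9 were at least 2-fold higher in PC3CR, the threshold of the study's methods and a difference of 1 on the log2 scale. NCOA2 was higher by less than that, whereas FOXA1 and TMPRSS2 were lower by less than that. KLK2 and KLK3 were nearly equal in the 2 lines. Thus 3 of 8 genes were at least 2-fold higher, against 9.84% of all genes, and 0 of 8 were at least 2-fold lower, against 6.72% of all genes. The 8 genes were chosen with earlier results of these data known, so shares among them are a description only. Over the 29 probe sets, 18 were higher and 11 lower in PC3CR. At least 2-fold higher were 7, against 8.94% of all probe sets with a single gene symbol, and 0 were at least 2-fold lower. The shares of all probe sets that were higher, lower or at least 2-fold lower were not counted, so those counts are a description only. The median difference was 0.34 over the 8 genes and -0.04 over all genes. By their brightest probe sets, 7 of the 8 genes lay above the array median on both arrays, where 61.8% of all genes did. KLK2 was the gene just below that level, and TMPRSS2 was the nearest above it. A bulk measurement of this kind cannot tell a larger share of expressing cells from more RNA per cell.

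**Figure D1:**
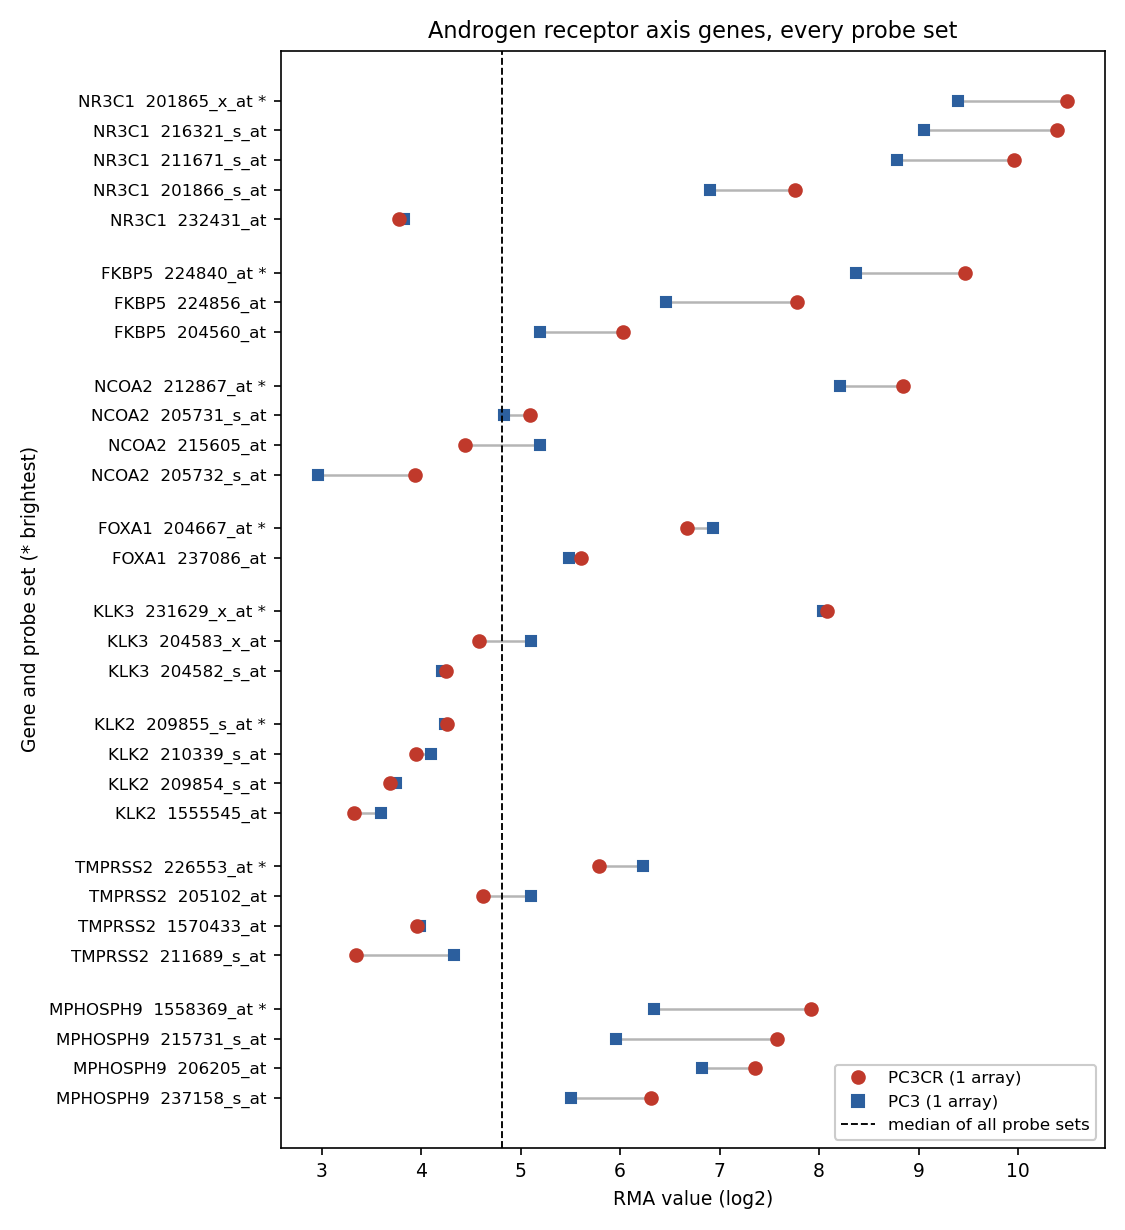
RMA values (log2, horizontal axis) of all 29 probe sets of the 8 genes in PC3CR (red circles) and PC3 (blue squares), 1 array each, with an asterisk at the brightest probe set of each gene. The dashed line is the median of all probe sets, 4.81. All probe sets of FKBP5 and MPHOSPH9 and 4 of 5 of NR3C1 lie to the right of it and are higher in PC3CR, whereas all 4 of KLK2 lie to the left.

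NR3C1, the glucocorticoid receptor gene, was above the array median in both lines and higher in PC3CR. Its brightest probe set, 201865_x_at, read 10.49 in PC3CR and 9.40 in PC3, a difference of 1.10 on the log2 scale or 2.14-fold. Both readings were well above the array median of 4.81. The probe set 216321_s_at read 10.39 in PC3CR and 9.06 in PC3, a difference of 1.33. The probe set 211671_s_at read 9.96 in PC3CR and 8.78 in PC3, a difference of 1.18. Thus 3 probe sets of the receptor transcript were past 2-fold in the same direction. The probe set 201866_s_at differed by 0.85, from values of 7.75 in PC3CR and 6.90 in PC3. The fifth, 232431_at, stood apart with 3.78 in PC3CR and 3.83 in PC3, below the array median on both arrays and with a difference of -0.05. Averaged over its 5 probe sets NR3C1 differed by 0.88 and was no longer past 2-fold. The suffix x marks probe sets with probes that can also match other transcripts, and the suffix s marks those that can match several transcripts of a gene or of a family. Among all genes, 8.55% were higher in PC3CR by at least as much as NR3C1.

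FKBP5 encodes a co-chaperone of HSP90 that binds steroid receptor complexes, and it is induced by both androgens and glucocorticoids. All of its 3 probe sets were above the array median and higher in PC3CR. The brightest, 224840_at, read 9.46 in PC3CR and 8.37 in PC3, a difference of 1.09 or 2.13-fold. The probe set 224856_at read 7.77 in PC3CR and 6.46 in PC3, a difference of 1.32, and 204560_at read 6.03 in PC3CR and 5.20 in PC3, a difference of 0.83. FKBP5 was thus the member whose probe sets gave the most similar differences among the 3 genes past 2-fold, with a mean of 1.08. Of all genes, 8.58% were higher in PC3CR by at least that of its brightest probe set.

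**Figure D2:**
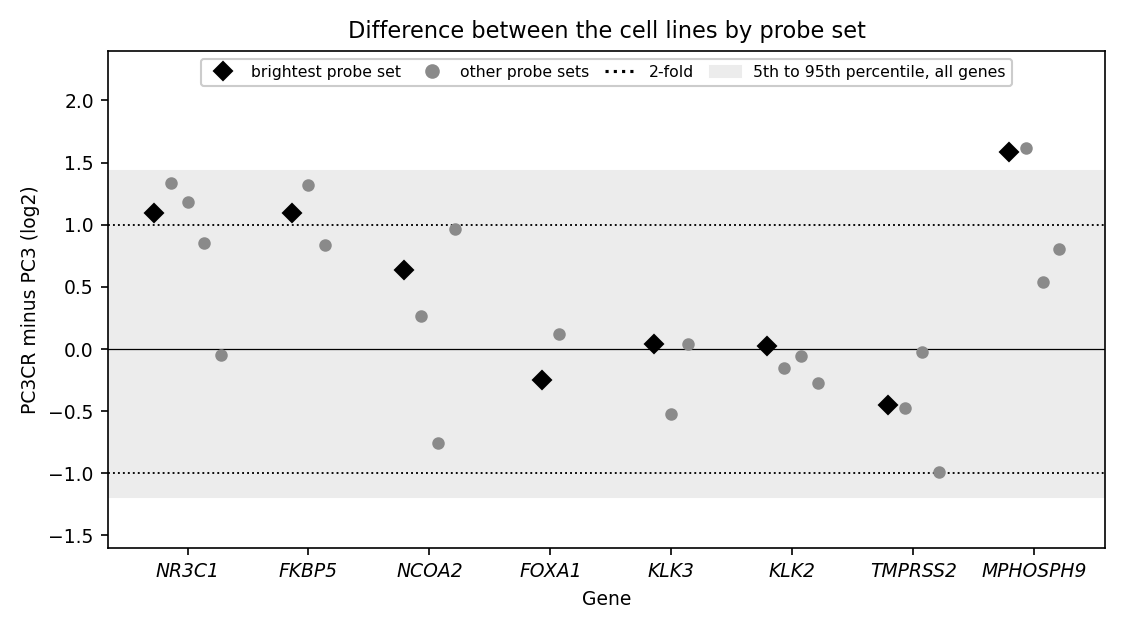
PC3CR minus PC3 (log2, vertical axis) for each probe set of the 8 genes, with the brightest as a black diamond and the others as grey circles. Dotted lines mark 2-fold and the shaded band spans the 5th to 95th percentile over all genes, -1.19 to 1.44. FKBP5 and MPHOSPH9 lie above 0 and TMPRSS2 below 0 in every probe set, and only the 2 upper probe sets of MPHOSPH9 leave the band.

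NCOA2 encodes a p160 coactivator, a protein that binds ligand-bound steroid receptors and brings in histone acetyltransferases. Its brightest probe set, 212867_at, read 8.85 in PC3CR and 8.21 in PC3, a difference of 0.63 or 1.55-fold. The other 3 were close to or below the array median and did not point one way. The probe set 205731_s_at read 5.09 in PC3CR and 4.83 in PC3, and 205732_s_at read 3.93 in PC3CR and 2.97 in PC3, a difference of 0.97. In the opposite direction, 215605_at read 4.44 in PC3CR and 5.20 in PC3, a difference of -0.76. As the mean of its 4 probe sets NCOA2 differed by 0.28.

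FOXA1 encodes the forkhead factor that opens chromatin at androgen receptor sites in luminal cells. Both of its probe sets were above the array median on both arrays. The brighter, 204667_at, read 6.68 in PC3CR and 6.93 in PC3, a difference of -0.25, and 237086_at read 5.61 in PC3CR and 5.49 in PC3, a difference of 0.12. The probe sets thus disagreed in sign, and neither reached 1.5-fold.

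KLK3 encodes prostate-specific antigen and KLK2 the related kallikrein 2, both secreted serine proteases of the luminal cell and classical androgen receptor targets. Their genes are neighbours on chromosome 19 and their starts resemble each other. The 250 bases before each annotated start (RefSeq, GRCh38.p14, plus strand, chr19:50854665-50854914 for KLK3 and chr19:50873189-50873438 for KLK2) are shown because the same 13-base match to a hormone response element lies in both, in capitals, at 169 to 157 bases before the start of KLK3 and 175 to 163 bases before that of KLK2.
KLK3: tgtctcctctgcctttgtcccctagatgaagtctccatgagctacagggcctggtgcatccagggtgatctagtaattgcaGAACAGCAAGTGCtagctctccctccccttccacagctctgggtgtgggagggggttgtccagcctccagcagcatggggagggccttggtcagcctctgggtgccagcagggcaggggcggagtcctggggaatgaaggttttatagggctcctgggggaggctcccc
KLK2: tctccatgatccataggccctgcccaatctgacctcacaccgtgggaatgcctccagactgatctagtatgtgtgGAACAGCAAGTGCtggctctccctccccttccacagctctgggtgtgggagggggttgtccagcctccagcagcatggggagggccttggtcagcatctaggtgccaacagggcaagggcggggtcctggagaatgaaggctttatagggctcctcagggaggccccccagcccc
The 2 stretches were identical at 199 of 259 columns of a global alignment that held 18 gap columns, or 76.8%. Forms of the element were searched on both strands in the 250 bases before each of 35116 annotated starts. The form GAACA, 4 bases of any kind, then GTNC was found in 211 of them, or 0.601%, and in 2 of 13 windows of the 6 members with an entry, these 2. This form was chosen after the sequences before KLK3 and KLK2 had been read, so its presence there is no finding, and its letters overlap with those of the other forms. The palindrome AGAACA, 3 bases, then TGTTCT was found in 1 window (0.00285%) and the looser GNACA, 3 bases, then TGTNC in 115 (0.327%), none of them before a member. The other windows were 7 of NR3C1, 2 of FKBP5 and 1 each of MPHOSPH9 and FOXA1, while TMPRSS2 and NCOA2 were not searched. A match of letters is a description, and binding was not measured.

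The 3 probe sets of KLK3 did not give one picture of its level. Its brightest probe set, 231629_x_at, read 8.08 in PC3CR and 8.04 in PC3, above the array median on both. The probe set 204582_s_at read 4.25 in PC3CR and 4.21 in PC3, below the array median on both arrays. The probe set 204583_x_at read 4.58 in PC3CR and 5.10 in PC3, a difference of -0.53. The difference of the brightest was 0.04, and its sign turned to -0.03 after loess centring and -0.01 after quantile normalization. The position of KLK3 above the median on both arrays therefore rested on 1 probe set of 3, one whose suffix marks probes that can match other transcripts, and cross-binding to related RNA was not tested.

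KLK2 was low in both lines. Its 4 probe sets read between 3.32 and 4.26 in PC3CR and between 3.60 and 4.23 in PC3, all below the array median. The brightest, 209855_s_at, read 4.26 in PC3CR and 4.23 in PC3, a difference of 0.03, and the other 3 differed by -0.15, -0.06 and -0.28. The lower quartile of all probe sets was 3.35 in PC3CR and 3.42 in PC3. How far a decrease could be seen at the level of KLK2 was not tested.

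TMPRSS2 encodes a membrane-bound serine protease whose androgen-driven promoter is a frequent fusion partner of ETS genes in prostate cancer. It was lower in PC3CR in each of 4 probe sets and past 2-fold in none. The brightest, 226553_at, read 5.78 in PC3CR and 6.23 in PC3, a difference of -0.45, or 1.37-fold lower in PC3CR. The probe set 205102_at read 4.62 in PC3CR and 5.10 in PC3, a difference of -0.48. The largest difference was that of 211689_s_at, -0.99, from 3.34 in PC3CR and 4.33 in PC3, both below the array median. The last, 1570433_at, read 3.96 in PC3CR and 3.99 in PC3. Of all genes, 18.2% were lower in PC3CR by at least as much as the brightest probe set of TMPRSS2. Averaged over its probe sets the gene lay above the array median in PC3 only, at 4.43 in PC3CR and 4.91 in PC3.

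MPHOSPH9 encodes a protein phosphorylated in M phase that sits at centrioles, and its transcript belongs to a set of androgen-induced genes known from prostate cancer cells. It had the largest difference of the 8 genes by the brightest probe set. That probe set, 1558369_at, read 7.92 in PC3CR and 6.34 in PC3, a difference of 1.59 or 3.00-fold. The probe set 215731_s_at read 7.57 in PC3CR and 5.96 in PC3, a difference of 1.62. The other 2 were higher by less, with 6.31 in PC3CR and 5.51 in PC3 for 237158_s_at and 7.36 in PC3CR and 6.82 in PC3 for 206205_at. All 4 probe sets were above the array median, and their mean difference was 1.14. Of all genes, 3.80% were higher in PC3CR by at least as much as its brightest probe set. The proliferation marker MKI67 was also higher, at 9.43 in PC3CR and 6.74 in PC3 by its brightest probe set. Its 4 probe sets differed by 0.62 to 2.70, and its part in the difference of MPHOSPH9 was not tested.

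**Figure D3:**
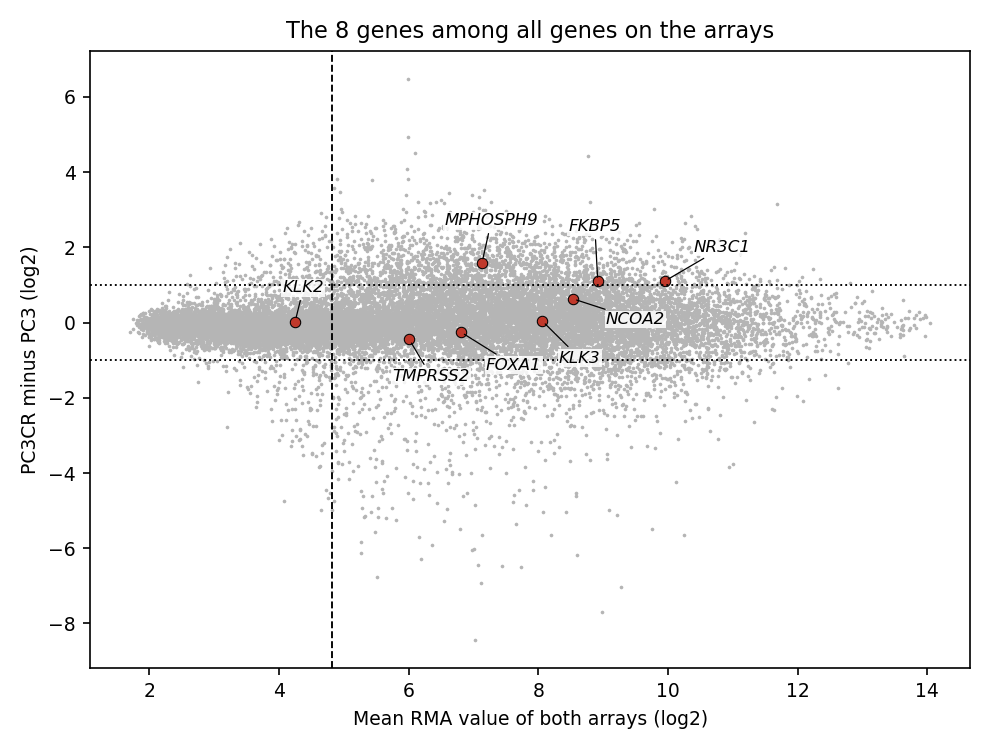
PC3CR minus PC3 (log2, vertical axis) against the mean RMA value of both arrays (log2, horizontal axis) for 19775 genes in grey, with the 8 genes in red. Dotted lines mark 2-fold and the dashed line the median of all probe sets. MPHOSPH9, NR3C1 and FKBP5 lie above the upper dotted line, and KLK2 lies left of the dashed line.

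Other genes known to respond to the androgen receptor went both ways. Of 36 such genes listed, 30 were measured, 5 of the 8 members among them. In the list 5 passed 2-fold upward in PC3CR, where 9.84% of all genes did, 4 downward, where 6.72% did, and 21 neither way. The median difference was 0.03, beside -0.04 over all genes. Without the members, 3 of 25 passed 2-fold upward and 4 downward, and the median was -0.15. ALDH1A3, an enzyme of retinoic acid synthesis, read 8.62 in PC3CR and 11.70 in PC3, the largest difference in the list at -3.08. PTGER4, a prostaglandin E2 receptor, read 7.17 in PC3CR and 9.91 in PC3, and ELL2, a transcription elongation factor, read 9.28 in PC3CR and 10.77 in PC3. The fourth gene past 2-fold downward was HPGD, a prostaglandin dehydrogenase, at 2.99 in PC3CR and 4.38 in PC3, below the array median on both arrays and named after its value was seen. One of the 4 probe sets of ELL2 differed by 1.25 in the other direction, and their mean difference was -0.86. Beside FKBP5 and MPHOSPH9, the genes past 2-fold upward were NNMT, ABCC4 and STEAP4, named after their values were seen, at 1.05, 1.05 and 1.01. STEAP4 was below the array median on both arrays, and 8 of the 30 genes were. With the mean of probe sets 2 genes of the list passed 2-fold upward and 2 downward, since NNMT, ABCC4, STEAP4 and HPGD then differed by 0.93, 0.72, 0.51 and -0.73.

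Among 7 steroid and related receptors measured, NR3C1 was the only one at least 2-fold higher, and with the mean of probe sets there was none. NR3C2, the mineralocorticoid receptor, was the only one at least 2-fold lower, at 3.15 in PC3CR and 5.76 in PC3, a difference of -2.61 by its single probe set. The 5 others were within 2-fold, and the list had a median of -0.29. PGR and ESR2 were below the array median on both arrays, as was the orphan receptor ESRRG, and these 3 were named after their values were seen.

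Genes that glucocorticoids are known to induce did not share the direction of NR3C1 as a group. Of 22 measured, 3 passed 2-fold upward, where 9.84% of all genes did, 3 downward, where 6.72% did, and 16 neither way. The median was 0.02. KLF9, a zinc finger factor, was at 7.87 in PC3CR and 5.88 in PC3, but its 5 probe sets spanned -0.27 to 2.56 and their mean difference was 0.89. CRISPLD2 at 1.13, named after its value was seen, was the other beside FKBP5, but its second probe set differed by -0.20 and the mean was 0.47. With the mean of probe sets 1 gene of the list passed 2-fold upward and 4 downward. DUSP1, a MAP kinase phosphatase, differed by -2.65, GADD45A, a stress response gene, by -1.98 and RGS2, a regulator of G protein signalling, by -1.77. TSC22D3, which encodes the glucocorticoid-induced leucine zipper, read 9.07 in PC3CR and 9.21 in PC3 and was also named after its value was seen.

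The steroid receptor chaperones mostly differed by less than 2-fold between the lines, as most genes on the arrays did. All 17 measured were above the array median on both arrays, where 61.8% of all genes were. In the list 13 were within 2-fold, and the median was -0.08, beside -0.04 over all genes. FKBP5 was the only one at least 2-fold higher, where 9.84% of all genes were, and 3 were at least 2-fold lower, where 6.72% were. DNAJB1, an HSP40 co-chaperone, differed by -2.30, PPID, a cyclophilin of receptor complexes, by -1.25 and BAG1, an HSP70 nucleotide exchange factor, by -1.17. The 3 probe sets of PPID ranged from -1.33 to 1.01, with a mean of -0.52, and those of BAG1 from -1.17 to -0.33, with a mean of -0.89. With the mean of probe sets DNAJB1 was the only chaperone at least 2-fold lower. UNC45A counted as within 2-fold at 0.60, but its other probe set differed by 1.02 and the mean was 0.81. It was named after its value was seen.

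Factors that act beside the receptor on DNA were also measured. Of 13 pioneer and partner transcription factors, 4 passed 2-fold downward, where 6.72% of all genes did, and none upward, where 9.84% did, and the median was -0.48, beside -0.04 over all genes. SOX9 differed by -2.49, from 6.88 in PC3CR and 9.37 in PC3, GRHL2, an epithelial grainyhead factor, by -1.89, FOXA2, a paralogue of FOXA1, by -1.76 and HOXB13, a prostate homeobox factor, by -1.73. With the mean of probe sets SOX9 differed by -1.49 and FOXA2 by -1.13. These counts rest on brightest probe sets. Other probe sets of ONECUT2, NFIA and NFIB reached 1.70, 1.72 and 1.49, though their means were 0.57, 0.68 and 0.31. In the other direction a probe set of ETV1 reached -3.00, with a mean of -0.97. These genes were named after their values were seen, and the list was written with earlier results of these data known. GRHL2 and HOXB13 were below the array median in PC3CR only, at 3.72 and 4.27.

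Coactivators and corepressors showed no common direction. Of 20 coactivators, 2 passed 2-fold upward, where 9.84% of all genes did, and 3 downward, where 6.72% did. Their median was 0.14, or -0.01 with the mean of probe sets. NCOA7 read 11.35 in PC3CR and 9.57 in PC3, a difference of 1.78, and its 3 probe sets averaged 1.06. The histone demethylase gene KDM3A differed by -1.65, the arginine methyltransferase gene PRMT1 by -1.44 and the acetyltransferase gene KAT5 by -1.11. The second probe set of KDM3A differed by -0.20 and the mean was -0.92, within 2-fold. The second coactivator past 2-fold upward, PIAS1, read 8.52 in PC3CR and 7.51 in PC3, was named after its value was seen and came within 2-fold after loess centring or quantile normalization and with the mean of probe sets. Of 11 corepressors, 10 were within 2-fold and HEY1, a Notch-responsive repressor, was at least 2-fold lower at -1.97, where 6.72% of all genes were.

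**Figure D4:**
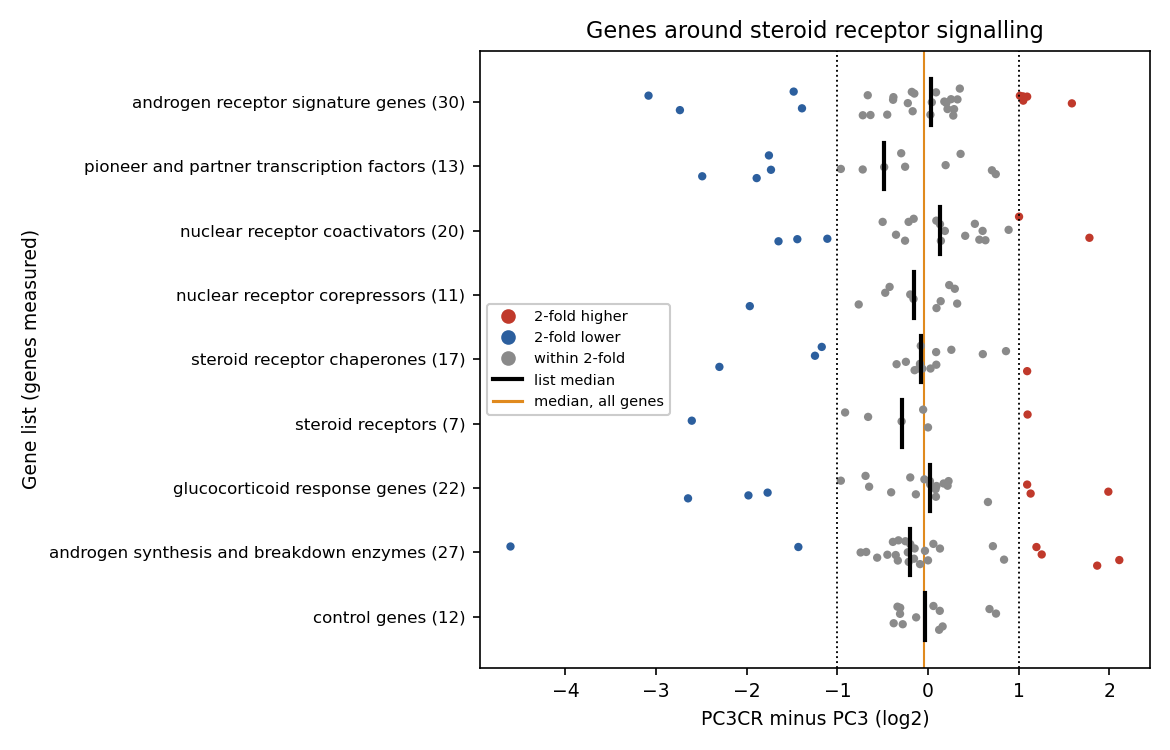
PC3CR minus PC3 (log2, horizontal axis) in 9 gene lists (number measured after each name), where a point is the brightest probe set of a gene. Red marks genes past 2-fold upward in PC3CR, blue those past it downward and grey the rest, black bars are list medians, the orange line is the median of all genes and dotted lines mark 2-fold. The transcription factor list has its median furthest to the left, at -0.48, and no control gene passes 2-fold.

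Enzymes and carriers that make, remove or import androgens were mostly dim. Of 27 measured, 16 were below the array median on both arrays and 9 above it on both, where 61.8% of all genes were above. In the list 4 passed 2-fold upward, or 3 with the mean of probe sets, where 9.84% of all genes did by brightest probe sets. Downward 2 passed it, where 6.72% of all genes did, and the list median was -0.20. The aldo-keto reductase genes AKR1C3 and AKR1C2, whose products interconvert ketosteroids and hydroxysteroids, differed by 2.11 and 1.87. The others past 2-fold upward, AKR1C1 (9.39 in PC3CR and 8.14 in PC3) and HSD17B6 (8.81 in PC3CR and 7.61 in PC3), were named after their values were seen. The 5 probe sets of AKR1C1 ran from -0.57 to 1.29 with a mean of 0.46, within 2-fold, and the 3 of AKR1C2 from -0.15 to 1.87 with a mean of 1.18. The AKR1C genes are close paralogues, and a probe set of one can bind the RNA of another. SLCO1B3, a steroid and drug importer, read 3.14 in PC3CR and 7.74 in PC3, and HSD17B10, a mitochondrial dehydrogenase, 8.71 in PC3CR and 10.14 in PC3. CYP17A1 and both HSD3B genes, which the steps from cholesterol to androgens need, were below the array median in both lines and were named after their values were seen.

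For scale, 12 control genes measured lay between -0.38 and 0.75, with a median of -0.04 and none past 2-fold. SDHA and POLR2A were furthest from 0, at 0.75 and 0.68. NCOA2, FOXA1, KLK3 and KLK2 lay within that range. TMPRSS2 at -0.45 lay below it, and NR3C1, FKBP5 and MPHOSPH9 lay above it. That range holds the brightest probe set of each control gene only. Over all their probe sets the control genes ran from -0.94 (YWHAZ) to 0.97 (PGK1), a span that includes the -0.45 of TMPRSS2. The control genes were also brighter than TMPRSS2.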

How the data were processed

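Total RNA of PC3CR and PC3 cells was measured on 1 Affymetrix array per line, with no replicate. The authors deposited log2 values that they had made with RMA, and the submitters' processing notes name Affymetrix Expression Console 1.4 and Transcriptome Analysis Console 3.1. The identifiers belong to the U133 Plus 2.0 design, although a Human Gene 1.0 ST array is given in the methods. RMA makes arrays alike in distribution, so a difference in total RNA is not seen. Of all probe sets, 1817 had exactly the same value on both arrays. Precision is limited by there being 1 array per line.

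Of 54613 probe sets, 41091 had 1 symbol and were used. For 41037 of them the symbol was taken from RefSeq on GRCh38.p14 through the Entrez ID, whether or not it differed. A gene was called at least 2-fold higher or lower in PC3CR, and no test was made. The members and lists were chosen with earlier results of these data known. The naming rule took all members and, per list, up to 4 genes past 2-fold, those furthest from 0. Each had 1 array at or above the median of all probe sets. Where a list had none, the rule took the 2 furthest from 0 at that level. Some other genes were named after their values were seen. Some listed genes were not analysed here. The alternatives were the mean of probe sets, 3 scalings (median centring, loess with a span of 0.4, quantile normalization), folds of 1.5 and 3, a signal floor (1 array at or above the median of all probe sets) and the lower quartile in place of the median. Values were taken as moved past 0.1 (log2) and counts past 1.5 times. Scripts were tested on simulated data with 200 seeded genes. Alignment used Biopython 1.88, loess statsmodels 0.14.6, figures matplotlib 3.10.9 and all else pandas 2.3.3 with numpy 2.4.6 under Python 3.11.15.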

Additional observations from a re-analysis of the deposited data

How the results depend on the processing

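The count of 3 genes at least 2-fold higher in PC3CR was the same under median centring, loess centring, quantile normalization and the signal floor. It was 2 with the mean of probe sets, where NR3C1 came within 2-fold, 4 at 1.5-fold, where NCOA2 joined, and 1 at 3-fold, where MPHOSPH9 was left at 3.00. The count of genes at least 2-fold lower was 0 in each of these. The number above the array median on both arrays was 7, or 6 with the mean of probe sets and 8 at the lower quartile. The median difference of the androgen-responsive list ranged from 0.01 after quantile normalization to 0.07 with the signal floor. With the mean of probe sets 6 of the 8 member differences moved by over 0.1, including KLK2 to -0.11 and KLK3 to -0.15. Of 35 other genes that the naming rule picked, 20 moved. Among those past 2-fold, 6 came within it (ELL2, KDM3A, PPID, BAG1, KLF9 and ITGB4). Genes named after their values were seen are not among the 35. Among such genes AKR1C1, NNMT, ABCC4, STEAP4, HPGD, CRISPLD2 and PIAS1 also came within 2-fold, while HSD17B6 did not, at 1.27. Quantile normalization moved 3 members, TMPRSS2 to -0.57, FOXA1 to -0.39 and MPHOSPH9 to 1.48. No paired analysis was possible because each line has 1 array. Array number limits what can be seen, and KLK2 was read below the array median.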

Other observations

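The families of the 2 protease groups were described as a whole. Of 14 kallikrein genes measured, 11 were lower, 2 higher and 1 equal in PC3CR. For comparison, 56.1% of all genes lay at or below the difference of KLK2, 0.03. No kallikrein gene passed 2-fold, where 9.84% of all genes did upward and 6.72% downward. The differences ran from -0.79 for KLK14 to 0.04 for KLK3 with a median of -0.24. The median over all genes was also below 0, at -0.04. KLK14 read 5.32 in PC3CR and 6.11 in PC3, and KLK5 read 4.92 in PC3CR and 5.38 in PC3. Of 12 type II transmembrane serine proteases, the family of TMPRSS2, 10 were lower and 2 higher in PC3CR, beside the same 56.1% of all genes. The family was not bright: 5 of the 12 were above the array median on both arrays, where 61.8% of all genes were, and 1 was below it on both. In this family 2 passed 2-fold downward, where 6.72% of all genes did, and none upward, where 9.84% did. The family median was -0.41, or -0.20 with the mean of probe sets. ST14, which encodes matriptase, read 4.73 in PC3CR and 6.80 in PC3. TMPRSS15, which encodes enteropeptidase, read 4.50 in PC3CR and 5.82 in PC3, a difference of -1.32, and its other probe set differed by -4.41.

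The prostate markers gave a mixed picture in both lines. Of 11 luminal markers measured, 4 were above the array median on both arrays, where 61.8% of all genes were, and 6 below it on both. The general luminal keratins KRT8 and KRT18 were above it, at 9.79 and 12.36 in PC3CR and at 9.72 and 11.69 in PC3. The prostate secretory genes ACP3, MSMB, AZGP1 and TGM4 were below the median in both lines, and like these keratins they were named after their values were seen. KLK3, also secretory, was above the median by its brightest probe set, at 8.08 in PC3CR and 8.04 in PC3. None of its other probe sets was above the median on both arrays. KRT19, a simple epithelial keratin, differed by -3.28 (its 2 probe sets averaged -2.13) and HOXB13 by -1.73. Of 7 basal markers, ITGB4, KRT15 and CDH3 were at least 2-fold lower, by -2.86, -2.66 and -1.31, where 6.72% of all genes were. ITGA6 was at least 2-fold higher, at 1.75, where 9.84% of all genes were. The 5 probe sets of ITGB4 ran from -2.86 to 0.14 with a mean of -0.95, within 2-fold.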
